A study of Homo sapiens and Mus musculus with 12 samples.

Results

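GATA6 was mapped in HPAF-II, an established human cell line of pancreatic ductal adenocarcinoma (PDA), by CUT&RUN, in which an antibody tethers a nuclease to chromatin and the released fragments are sequenced. The list described here is the GATA6 list of that line, with the mitochondrial genome, chromosome 1 below 1 Mb and everything within 1 Mb of a centromere band left out. It holds 10447 of the 10670 deposited GATA6 peaks, among 19164 peaks in the 3 lists of the series. All 3 GATA6 libraries came from HPAF-II cells carrying HA-tagged human SPDEF and used the R&D AF1700 antibody, and the labels name no untagged cells, treatment or time. The same cells gave 3 libraries with an HA antibody, 1 with IgG and 1 with an H3K4me3 antibody. The mouse line FC1245 (C57/Bl6, KrasLSLG12D/+; Trp53LSLR172H/+; Pdx1-Cre), carrying HA-tagged mouse Spdef, gave 3 HA libraries and 1 IgG library. A single list stands for the 3 GATA6 libraries and holds a chromosome, start and end per peak, with no height, score or p-value. The labels do not say whether the 3 libraries came from separate cultures, and no peaks from the H3K4me3 or IgG library are used here. There is no value per library, so every number below describes 1 list, and no difference could be set against a spread between replicates. The sequencing depth is unknown, and expression was not measured, so the PDA identity of the cells was not checked against marker genes.

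GATA6 is a zinc-finger transcription factor that binds short DNA elements with the core GATA. It acts in the development of the gut, pancreas, heart and lung, often beside FOXA and HNF factors, and can bind enhancers far from the genes they control. In PDA it is used as a marker of the classical subtype, whose cells keep an epithelial, mucus-producing programme, as opposed to the basal-like subtype.

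The kept peak closest to a centromere band lay 1046231 bp from that of chromosome 18 (20046232 to 20046623, 392 bp wide), and the left-out peak nearest the limit lay 974097 bp from that of chromosome 11 (56674098 to 56674138, 41 bp). On chromosome 1 the last peak left out (567148 to 570267) was 3120 bp wide, and the first peak kept (3236904 to 3237169) was 266 bp wide.

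GATA6 peaks were mostly short, with a long tail of wide sites. The median width was 346 bp (95% order-statistic interval 340 to 352), with quartiles of 235 and 642 bp. Together the peaks covered 5042 kb, or 0.171% of the kept genome. The fullest class of widths was 200 to 250 bp, with 1724 peaks, and the counts fell to 284 peaks at 550 to 600 bp. Beyond that they formed a shoulder rather than a steep fall, with 300 peaks at 600 to 650 bp and 260 at 700 to 750 bp. Peaks of 1 kb or more, called wide here, numbered 962 (9.21% of peaks) and held 25.8% of the covered bases. At the other end, 311 peaks were narrower than 100 bp and 5 were 1 bp long.

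The spacing of the peaks had a pair of scales, as the plot of widths and gaps shows. Over 10403 pairs of neighbours the median gap, edge to edge, was 66050 bp (95% interval 63014 to 69692), while the mean was 264808 bp, since 645 gaps exceeded 1 Mb and took up 45.8% of the kept length. On a log scale the gaps formed a broad hill that was highest between 158489 and 251189 bp (938 gaps). A separate, narrow group stood between 158 and 251 bp (391 gaps), with a dip of 134 gaps between 398 and 631 bp. In steps of 50 bp this short group was fullest at 200 to 250 bp, with 250 gaps, against 82 at 100 to 150 bp and 39 at 400 to 450 bp.

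**Figure D1:**
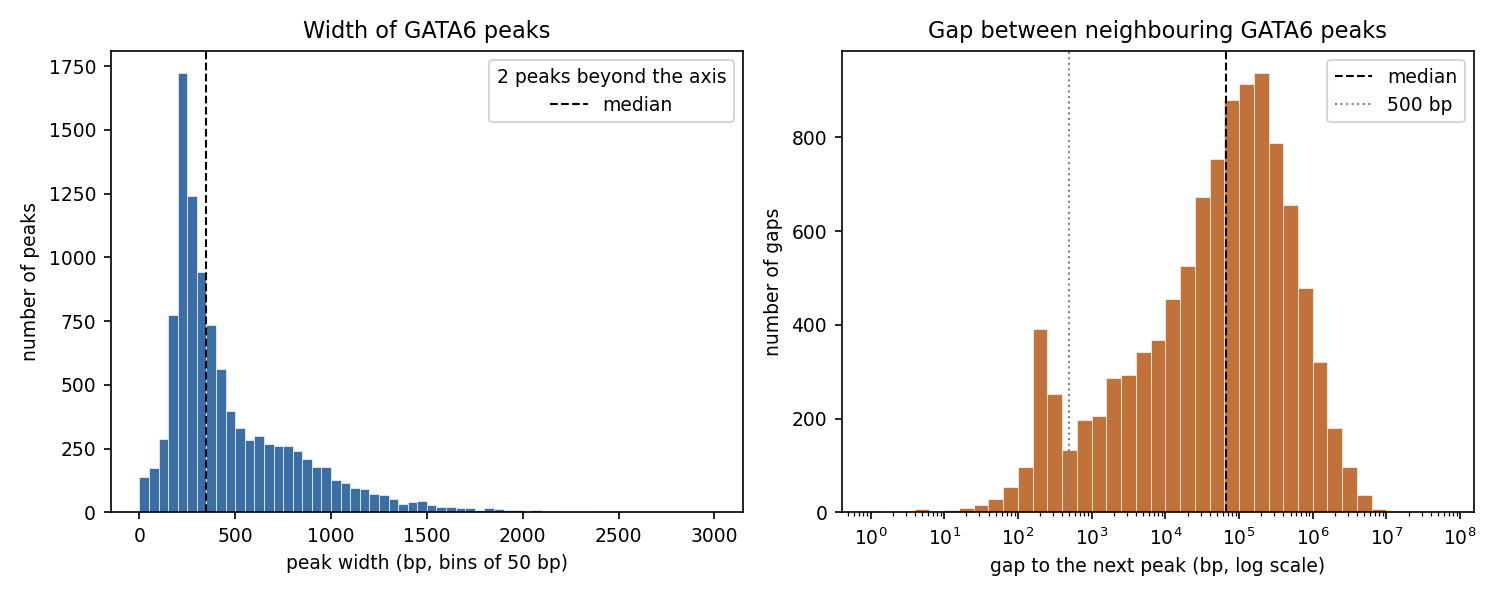
Left, number of GATA6 peaks by width in bins of 50 bp, with the median of 346 bp dashed and 2 peaks wider than the axis. Right, number of gaps between neighbouring peaks on a log axis, with the median of 66050 bp dashed and 500 bp dotted. A narrow group of gaps near 200 bp stands apart from the broad hill of gaps, which is highest between 158489 and 251189 bp.

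Peaks on either side of the shortest gaps were narrower than other neighbours. In the 936 pairs at most 500 bp apart, the median width was 213 bp for the narrower peak and 416.5 bp for the wider, and 43.9% of the narrower ones were under 200 bp. In the 1759 pairs 500 bp to 10 kb apart the medians were 266 and 682 bp, and 24.8% of the narrower ones were under 200 bp. Beyond 10 kb the medians were 249 and 547.5 bp. Whether the peaks of a short pair are pieces of 1 site or separate sites cannot be told apart from positions alone. Joining them left 9511 sites, 856 of which were made of several peaks. The median width was then 394 bp and the share of wide sites 12.6%.

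Most GATA6 peaks stood alone, and a minority formed clusters. With peaks at most 10 kb apart stitched together, 5941 peaks (56.9%) were lone, 2514 lay in pairs and 1992 lay in 554 clusters of 3 to 8 peaks. The share in clusters was 19.1% (95% Wilson interval 18.3 to 19.8). Clusters had a median span of 7685 bp, and 80 of them held 5 or more peaks. The share depends on the short gaps and on the list. It was 11.5% of sites, in 322 clusters, when peaks at most 500 bp apart were joined. With the wider 50% of peaks it was 9.29%, in 146 clusters. Both settings leave fewer peaks to stitch, so a lower share follows from the settings themselves. With all kept peaks the share was 12.8% with stitching at 5 kb and 27.3% at 20 kb.

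Clusters held both more wide and more narrow peaks than lone sites. The share of wide peaks was 7.64% among lone peaks (95% Wilson interval 6.99 to 8.35), 9.86% in pairs, 11.2% in clusters of 3, 13.9% in clusters of 4 and 16.5% in larger clusters. Over all clusters it was 13.1% (11.6 to 14.6). Peaks under 200 bp made up 17.1% of clustered peaks and 10.6% of lone ones. The medians therefore differed little, at 368 bp for clustered and 341 bp for lone peaks, a difference of 27 bp. The size of this difference depended on the settings: it was 3.5 bp with stitching at 5 kb, 18 bp without chromosomes 12, 14 and 20, and 177 bp with peaks at most 500 bp apart joined. 

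The widest GATA6 site stood far above the rest. It spanned 8036 bp on chromosome 12 (hg19, 71551319 to 71559354, 12q21.1), or 23.2 times the median width, and ended a cluster of 6 peaks that covered 76.7% of 12560 bp. The other 5 peaks of that cluster were 48 to 916 bp wide. The gene table of GRCh38.p14 puts 11 protein-coding genes in 12q21.1. One of them is TSPAN8, a tetraspanin of the cell surface that belongs to the classical PDA signature. A gene table of hg19 was not used here, so the genes given for a site are those of its band, and none is claimed as the gene at the peak. The next widest peak, of 3274 bp, lay alone in 12q15 (chromosome 12, 69723850 to 69727123), the band of LYZ, which encodes the antibacterial enzyme lysozyme and is also in the classical list. Its nearest neighbour was 24663 bp away.

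From rank 3 to rank 15 the widths ran from 2960 to 2586 bp without a break. The peak in 8q24.12 (chromosome 8, 120189055 to 120192014) was 2960 bp wide, and 11 other peaks lay within 100 kb of it. That in 2p16.2 (chromosome 2, 54799021 to 54801885, 2865 bp) had a neighbour 288 bp away. Its band holds 10 coding genes, among them SPTBN1, a spectrin of the membrane skeleton, and PSME4, a proteasome activator. The peak in 1q31.2 (chromosome 1, 192669559 to 192672392, 2834 bp) lies in a band of 10 coding genes, of which RGS1, RGS2, RGS13, RGS18 and RGS21 encode regulators of G protein signalling.

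Chromosome 12 held 4 of the 15 widest peaks. Besides 12q21.1 and 12q15, these were a peak of 2807 bp in 12q24.23 (120666415 to 120669221), and a peak of 2763 bp in 12q13.13 (53318477 to 53321239). The band 12q13.13 carries KRT7, KRT8, KRT18 and KRT80, keratins of epithelial cells, and KRT6A and KRT6C of the basal-like list. It also holds 90 coding genes in all.

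Several of the widest peaks stood in bands of few coding genes, and some were isolated. In 17q24.1 (chromosome 17, 62923633 to 62926382, 2750 bp) no other peak lay within 100 kb. The 6 coding genes there include AXIN2, a feedback inhibitor of Wnt signalling, and SMURF2, a ubiquitin ligase. The band 2q22.1 (chromosome 2, 139705135 to 139707748, 2614 bp) has 6 coding genes, CXCR4, THSD7B, HNMT, SPOPL, NXPH2 and LRP1B, and the peak had 1 neighbour within 500 kb. In 3q25.2 (chromosome 3, 152876947 to 152879672, 2726 bp) the 8 coding genes include MBNL1, a splicing regulator, and MME. The peak in 11q14.1, a band of 31 coding genes (chromosome 11, 80304498 to 80307083, 2586 bp) was the most isolated of the 15, with its nearest neighbour 242461 bp away.

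The remaining wide peaks had company close by. They lay in 5q13.3 (chromosome 5, 73926925 to 73929670, 2746 bp), 1q21.3 (chromosome 1, 154945017 to 154947729, 2713 bp), 5q23.2 (chromosome 5, 124076719 to 124079383, 2665 bp) and 18q21.2 (chromosome 18, 52432469 to 52435079, 2611 bp). Between 1 and 3 other peaks lay within 10 kb of each. Band 1q21.3 holds 151 coding genes, among them CREB3L4, a transcription factor of secretory cells, and SPRR1B, SPRR3 and S100A2 of the basal-like list. Band 18q21.2 holds TCF4, a basic helix-loop-helix factor counted here with the mesenchymal genes.

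The clusters with the most peaks were 7 clusters of 8 peaks and 6 of 7 peaks, of which 4 lay on chromosome 12. They are described with 2 of the 22 clusters of 6 peaks, those with the largest summed width, which both lay on chromosome 12. The map of these clusters shows peaks of unequal width with open stretches between them. In 12p12.1 (chromosome 12, 26266107 to 26281507), 8 peaks covered 41.8% of 15401 bp, and 3 of them were 1458 to 1661 bp wide. In 12p11.21 (31884999 to 31910412), a peak of 2338 bp stood at the edge, followed by 7 smaller ones, in a span of 25414 bp. That band holds PKP2, a plakophilin of desmosomes. In 12q21.33 (89318648 to 89354752), 7 peaks stretched over 36105 bp, the longest span of all 554 clusters. Its band holds GALNT4, an enzyme that starts mucin-type O-glycosylation.

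The other 3 clusters of chromosome 12 lay in 12q14.2 (65050060 to 65073891, 7 peaks), 12p11.23 (27484105 to 27497405, 6 peaks) and 12q21.1, that of the widest peak. Band 12q14.2 has 10 coding genes, among them TBK1, a kinase of innate immune signalling, and SRGAP1. Band 12p11.23 has 9, among them ITPR2, a calcium channel of the endoplasmic reticulum, and BMAL2, a circadian factor. The 6 peaks in 12p11.23 were all 277 bp or wider, with a median of 962.5 bp.

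**Figure D2:**
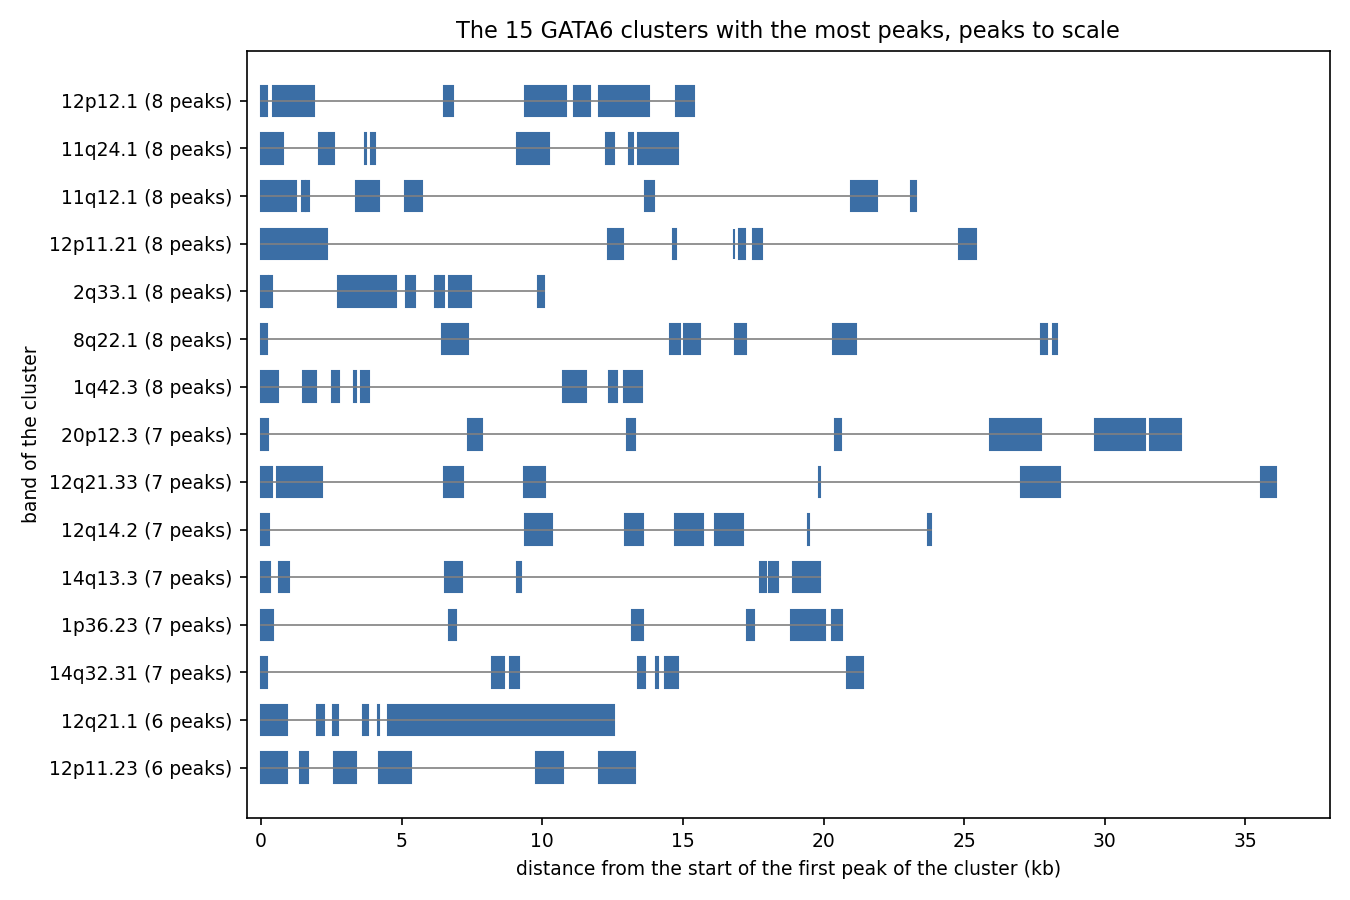
The 15 clusters of GATA6 peaks described here (all with 7 or 8 peaks and the 2 of 22 clusters of 6 peaks with the largest summed width), 1 per line and named by band; blue blocks are peaks drawn to scale against distance from the start of the first peak, in kb. The block of 8036 bp fills most of the 12q21.1 cluster, whereas 12q21.33 spreads 7 peaks over 36105 bp.

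Outside chromosome 12, clusters of 8 peaks lay in 5 places. They were 11q24.1 (chromosome 11, 122007668 to 122022501), 11q12.1 (chromosome 11, 57545336 to 57568633), 2q33.1 (chromosome 2, 201238574 to 201248617), 8q22.1 (chromosome 8, 95203973 to 95232285) and 1q42.3 (chromosome 1, 234735836 to 234749368). The cluster in 2q33.1 had the shortest span of those with 8 peaks, with 40.3% of 10044 bp covered and a widest peak of 2060 bp. Band 11q12.1 holds CTNND1, the p120 catenin of adherens junctions, and 8q22.1 holds CDH17, a cadherin of gut epithelium and a classical PDA gene. Clusters of 7 lay in 20p12.3, 14q13.3, 1p36.23 and 14q32.31. Band 14q13.3 holds 6 coding genes, among them NKX2-1, NKX2-8 and PAX9, developmental transcription factors of foregut-derived organs. With peaks at most 500 bp apart joined, the 15 clusters kept 3 to 6 sites each. That of 12q21.1 kept 3 and those of 12p12.1, 2q33.1 and 14q32.31 kept 4.

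Over whole 1 Mb windows the peaks were uneven. The 2916 windows held 3.56 peaks on average and a median of 2. Their variance was 5.26 times the mean. No peak lay in 841 windows (28.8%), while 266 windows held 10 or more peaks and together 35.9% of all peaks. The 443 fullest windows, 15.2% of them, held 50% of the peaks.

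The fullest window held 35 peaks and lay in 2q33.1 (chromosome 2, 201000001 to 202000000). It contained 35 of the 48 peaks of that band, and 17 of them lay in 3 clusters, the cluster of 8 above included. The next 3 lay on chromosome 12, with 32 peaks at 76000001 to 77000000 (12q21.2), 28 at 89000001 to 90000000 (12q21.33) and 27 at 26000001 to 27000000 (12p12.1 and 12p11.23). Also with 27 peaks stood chromosome 1, 172000001 to 173000000, mostly in 1q24.3. Each of these windows held clusters, but most of its peaks were single sites or pairs, apart from 12q21.2 and 12q21.33, where 18 of 32 and 17 of 28 were clustered.

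The other 10 of the 15 fullest windows held 22 to 26 peaks. On chromosome 14 they were 55000001 to 56000000 (14q22.2 and 14q22.3, 26 peaks), 32000001 to 33000000 (14q12, 24), 50000001 to 51000000 (14q21.3 and 14q22.1, 23) and 65000001 to 66000000 (14q23.3, 22). On chromosome 8 they were 8000001 to 9000000 in 8p23.1 (23 peaks), 126000001 to 127000000 in 8q24.13 (23) and 128000001 to 129000000 in 8q24.21 (22). The band 8p23.1 holds GATA4, a close relative of GATA6, among 89 coding genes. In 8q24.21 there are 6 coding genes, among them MYC, a growth-promoting transcription factor, POU5F1B and ASAP1, and the band as a whole held 51 peaks. The last 3 windows held 25 peaks each, at 65000001 to 66000000 of chromosome 12 and, on chromosome 3, at 149000001 to 150000000 (3q25.1) and 171000001 to 172000000 (3q26.31). At the lowest count named, 22, there were 5 windows, of which those with the larger summed width were taken.

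Cytogenetic bands gave the link to named genes. Of 811 bands, 112 (13.8%) held at least 5 peaks and at least 2 times the peaks that their length gives at the genome-wide rate of 3.55 peaks per Mb. These dense bands made up 11.4% of the kept length and held 32.1% of the peaks. Chromosome 12 had 20 of them, chromosome 14 had 14, chromosome 3 had 12 and chromosome 2 had 10. With the rate of the own chromosome in place of the genome's, 89 bands (11.0%) qualified and 56 of the 112 were among them. Dense bands held 9.67 coding genes per Mb against 6.78 in all bands, and 76 of the 112 also qualified when the expected number came from gene number, a rule that 192 bands (23.7%) met.

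The 10 bands with the highest ratio of observed to expected peaks were 0.2 to 4.6 Mb long and held 1 to 26 coding genes. The highest was 15q22.33, with 8 peaks in 0.2 Mb (ratio 11.3, 95% Poisson interval 4.86 to 22.2), to which the gene table ties SMAD3, a mediator of TGF-beta signalling, alone. Next came 14q22.2, with 34 peaks in 1.4 Mb (6.84, 4.74 to 9.56). Its 9 coding genes include BMP4, a secreted growth factor, and SAMD4A. The bands 12p11.23 (ratio 5.20), 12q21.33 (5.01), 14q13.3 (4.93), 3q25.1 (4.84), 12p11.21 (4.75), 12q24.12 (4.69), 12q21.2 (4.65) and 1q42.3 (4.59) followed. Of these, 12q24.12 has 7 coding genes, among them ALDH2, an enzyme of alcohol metabolism, and SH2B3. Band 12q21.2 holds SYT1, a synaptic vesicle protein. The 5 chromosome 12 bands among them ran from 2.25 to 2.52 when set against the rate of chromosome 12.

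By chromosome the density of GATA6 peaks ranged from 7.33 per Mb on chromosome 12 to 1.10 on chromosome 13, leaving aside chromosome Y with 5 peaks. The values of chromosomes 13 and 14 include short arms with 0 peaks, parts of which are not sequenced. Their long arms alone had 1.28 and 7.07 per Mb. The long arm of chromosome 12, at 8.15 per Mb, was the densest arm of all, followed by that of chromosome 14. The short arm of chromosome 12 had 4.95. Copy number was not measured here, so its part in these densities was not tested. Both arms of chromosome 20 were dense, at 6.99 on the short and 5.88 on the long arm. Median gaps were 34680 bp on chromosome 12 and 37664.5 bp on chromosome 14, against 179294 bp on chromosome 13.

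Chromosomes differed in the width of their peaks too. Wide peaks made up 12.7% on chromosome 12, 11.5% on chromosome 20 (95% Wilson interval 8.65 to 15.2) and 11.4% on chromosome 2, but 2.81% on chromosome 19 (1.21 to 6.41) and 5.04% on chromosome 16. Clustered peaks made up 29.0% on chromosome 12 and 6.74% on chromosome 19. Chromosome 19 was near the genome-wide density by length (3.36 peaks per Mb) and, apart from chromosome Y, lowest per coding gene, at 0.123 peaks per gene against 1.02 on chromosome 14.

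**Figure D3:**
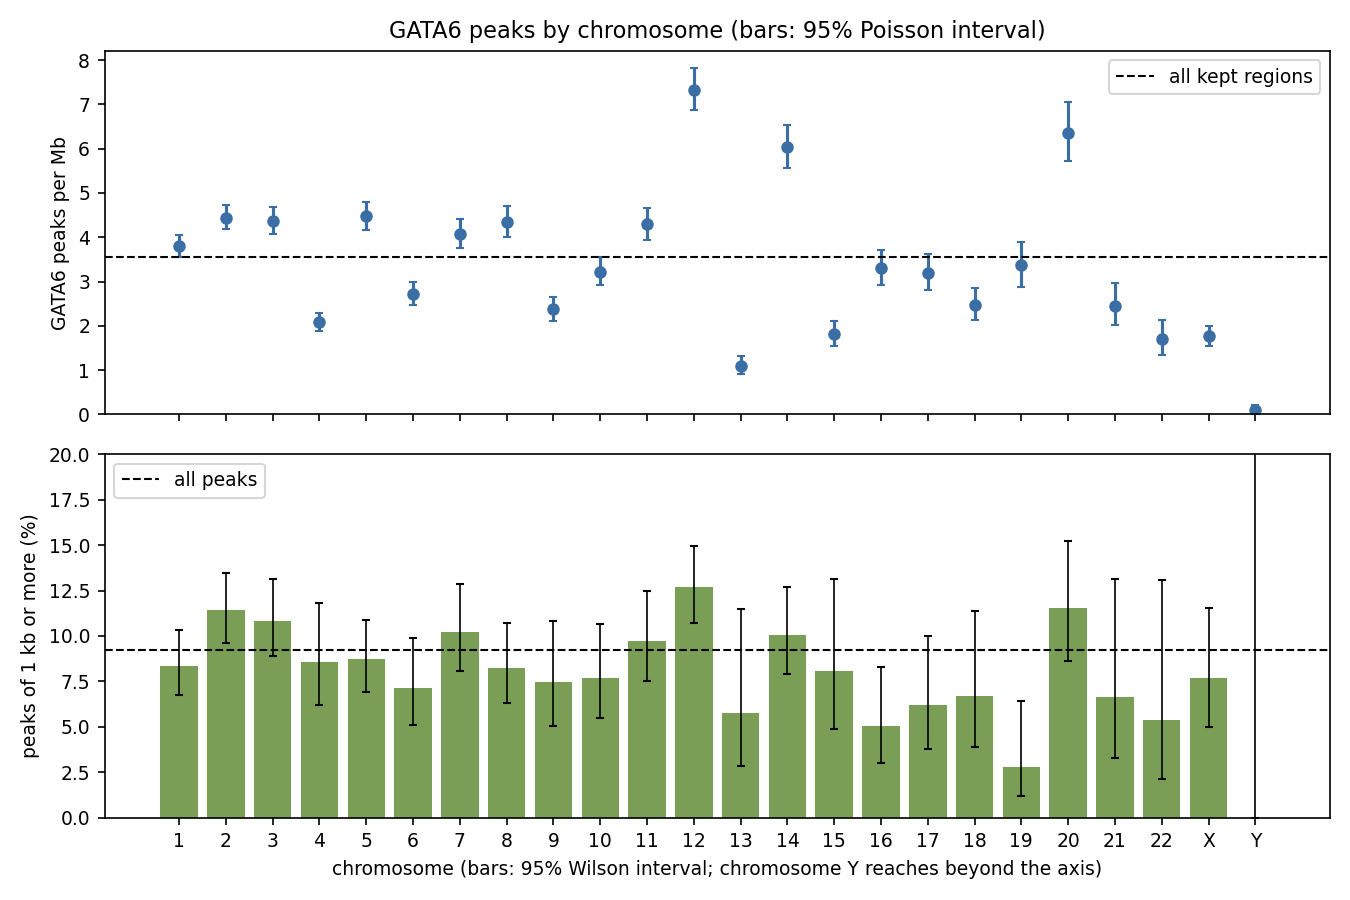
Top, GATA6 peaks per Mb of kept length on each chromosome with 95% Poisson intervals, the genome-wide 3.55 dashed; chromosomes 12, 14 and 20 lie highest. Bottom, percent of peaks of 1 kb or more with 95% Wilson intervals, all peaks (9.21%) dashed; chromosome 19 is lowest at 2.81% apart from chromosome Y, whose 5 peaks include none.

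Peak density rose with gene density and the share of wide peaks fell. Bands with under 2 coding genes per Mb held 1.46 peaks per Mb (95% Poisson interval 1.36 to 1.57). The density was 3.49 at 2 to 5 genes, 4.46 at 5 to 10, 4.16 at 10 to 20 and 4.94 (4.61 to 5.28) above 20. Most of the rise thus fell between the lowest classes. The class under 2 genes per Mb includes variable and stalk bands such as 1q12 (12.7 Mb) and 13p12 (5.5 Mb), with 0 peaks. Parts of such bands are not sequenced, and how much of the rise rests on them was not tested. Over the classes from fewest to most genes, wide peaks made up 11.0%, 10.8%, 9.20%, 6.75% and 6.09% of peaks. Under 5 genes per Mb the share was 10.9% (95% Wilson interval 10.0 to 11.9, n = 4144 peaks), and at 10 or more it was 6.53% (5.65 to 7.54, n = 2632). The median widths were 370 and 321 bp.

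The order was also seen without the densest chromosomes and within most chromosomes. Without chromosomes 12, 14 and 20 the shares of wide peaks were 10.1% and 6.10%, and with peaks at most 500 bp apart joined they were 14.9% and 8.83%. Of 18 chromosomes with at least 20 peaks in both classes, 15 had the higher share and 12 the larger median width in the gene-poor class. The exceptions in share were chromosomes 9, 10 and 21. The difference in share was plainest on chromosome 3 (14.0% and 3.23%) and chromosome 8 (10.3% and 2.78%). The gene-rich shares there rest on few wide peaks, 4 of 124 and 3 of 108. On chromosome 15 the shares were nearly equal (5.77% and 5.41%, from 3 of 52 and 2 of 37 peaks).

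**Figure D4:**
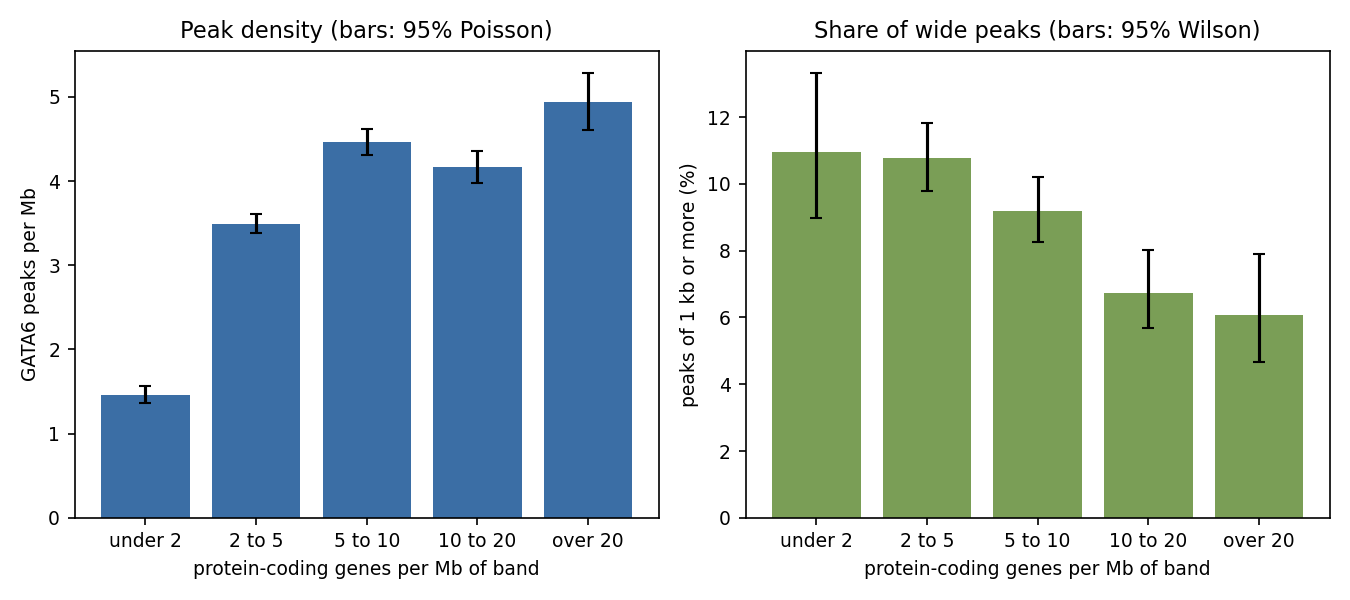
GATA6 peaks per Mb (left, with 95% Poisson intervals) and percent of peaks of 1 kb or more (right, with 95% Wilson intervals) in bands grouped by protein-coding genes per Mb. Density climbs from 1.46 to 4.94 peaks per Mb while the share of wide peaks drops from 11.0% to 6.09%. The lowest class includes bands that are in part not sequenced.

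The Giemsa stain of the bands, which is darkest in gene-poor, late-replicating DNA, gave a similar order. Peaks per Mb were 4.21 in unstained bands, 4.23, 3.69 and 3.44 in the lighter grey classes and 2.52 (95% Poisson interval 2.38 to 2.66) in the darkest. Wide peaks made up 8.27% in unstained and 13.6% in the darkest bands. Unstained bands had 1.27 times the density of stained ones (95% interval 1.22 to 1.32, with peaks taken as independent). The variable and stalk bands of heterochromatin and short arms, parts of which are not sequenced, held 9 and 0 peaks.

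The longest gaps between neighbouring peaks marked places without GATA6 peaks. Apart from 42.9 Mb of chromosome Y, the longest was 18.9 Mb on chromosome 13 (53029519 to 71932195). The bands lying wholly inside it hold 13 coding entries, among them the protocadherins PCDH9, PCDH17 and PCDH20, adhesion proteins of neurons. The next were 9.24 Mb on chromosome 13 (80792510 to 90032650, across 13q31.2 with SLITRK5, a neuronal membrane protein), 8.85 Mb on chromosome 21 (18915221 to 27761227) and 8.04 Mb on chromosome 4 (130932684 to 138970777). The gap on chromosome 21 contains the whole of 21q21.2, to which the table ties 0 coding genes, and that on chromosome 4 contains no whole band.

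Gene lists were read through their bands. The measure is how many members lie in one of the 112 dense bands, beside 3242 of 19949 protein-coding genes (16.3%) overall. A median ratio over members is set beside the median of 0.986 over all coding genes. Members of a list share bands and a band holds many genes, so these counts say nothing about a single gene.

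Endoderm and epithelial transcription factors had 8 of 31 members in dense bands and a median ratio of 1.27. Their highest bands were 11q13.1 of OVOL1, a zinc-finger factor of epithelia (36 peaks, ratio 4.05, 95% Poisson interval 2.84 to 5.61), and 10p15.2 of KLF6 (10 peaks, 3.52). FOXA2 in 20p11.21 (2.82), HNF4A in 20q13.12 (2.36), GRHL2 in 8q22.3 (2.33) and SOX9 in 17q24.3 (2.15) also lay in dense bands. The lowest were 15q21.3 of ONECUT1 (0.409) and 8q21.13 of HNF4G (0.438). GATA6 itself, in 18q11.2, lay in a band with 22 peaks and a ratio of 1.24 (0.776 to 1.88), and FOXA1 in 14q21.1 in a band with 9 peaks (0.445).

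The classical PDA list had 7 of 27 members in dense bands and a median ratio of 1.27. They were LYZ in 12q15 (47 peaks, ratio 3.48), CYP3A7 in 7q22.1 (69 peaks, 3.35), AGR2 and AGR3 in 7p21.1 (47 peaks, 3.01), MYO1A in 12q13.3 (2.63), ERBB3 in 12q13.2 (2.15) and TSPAN8 in 12q21.1 (30 peaks, 2.01). AGR2 encodes an endoplasmic reticulum protein needed to make mucins. Its lowest bands were 3p14.2 of FAM3D (4 peaks, 0.221) and 5q35.3 of BTNL8 (6 peaks, 0.392). The count rests in part on chromosome 12. Against the rate of the own chromosome it was 3, where 12.3% of all coding genes qualified. It was 4 without chromosomes 12, 14 and 20, but LYZ, MYO1A, ERBB3 and TSPAN8 then leave the list itself. The share of all coding genes under that setting is not given here.

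The basal-like list had 10 of 24 members in dense bands and a median ratio of 1.54. The 10 fall in 6 bands, with KRT6A, KRT6C and KRT7 sharing 12q13.13 (39 peaks, ratio 3.23) and S100A2, SPRR1B and SPRR3 sharing 1q21.3 (41 peaks, 2.46). CST6, a cysteine protease inhibitor, lay in 11q13.1 (36 peaks, 4.05). TP63, the factor of squamous epithelium, lay in 3q28 (52 peaks, 3.33). The lowest were 13q22.3 of SCEL, with 0 peaks, and 4p15.32 of FGFBP1 (2 peaks, 0.217). Against the rate of the own chromosome the count was 7 of 24, where 12.3% of all coding genes qualified. Band 12q13.13 then had a ratio of 1.56 and did not count.

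Adhesion and keratin genes had 10 of 23 members in dense bands, in 7 bands, and a median ratio of 1.75. PKP2 in 12p11.21 (27 peaks, ratio 4.75) and CLDN1, a claudin of tight junctions, in 3q28 (52 peaks, 3.33) were highest. EPCAM in 2p21 (2.44), OCLN in 5q13.2 (2.24) and CDH1, the E-cadherin gene, in 16q22.1 (2.06) also counted. Among the lowest was DSP, a desmosomal plakin, in 6p24.3 (0.724). Against the rate of the own chromosome the count was 4 of 23, where 12.3% of all coding genes qualified. Without chromosomes 12, 14 and 20 it was 6, but PKP2, KRT7, KRT8, KRT18 and KRT80 then leave the list itself. The share of all coding genes without those chromosomes is not given here.

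Mucins had 6 of 14 members in dense bands, but these were only 3 bands. They were 7q22.1 with MUC3A, MUC12 and MUC17, 3q29 with MUC4 and MUC20 (67 peaks, 3.30) and 1q22 with MUC1 (14 peaks, 2.63). The gel-forming MUC2, MUC5AC, MUC5B and MUC6 share 11p15.5 (6 peaks, 0.603). Of the membrane-bound mucins, MUC13 (1.97), MUC21 (1.82), MUC15 (1.02) and MUC16 (0.603) lay outside dense bands. Mucus secretion and trefoil factor genes had 5 of 21 in dense bands, led by GALNT4 in 12q21.33 (64 peaks, 5.01) and AGR2 and AGR3. The lowest were GCNT3, a mucin glycosyltransferase, in 15q22.2 (0.704) and REG4 in 1p12 (0.730). The trefoil factors TFF1, TFF2 and TFF3 share 21q22.3 (25 peaks, 1.27).

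Neuronal genes, a list from another tissue, had 6 of 22 members (27.3%) in dense bands, a share above those of the transcription factor (25.8%), classical (25.9%) and mucus secretion (23.8%) lists. They were led by SYT1 in 12q21.2 (76 peaks, 4.65) and SNAP25 in 20p12.2 (3.79), with a median ratio of 0.912. Mesenchymal genes had 2 of 19 members in dense bands, TWIST1 in 7p21.1 and TGFBI in 5q31.1 (2.06), with COL1A1 in 17q21.33 lowest (0.402). Acinar and islet genes had 4 of 23, led by NEUROD1 in 2q31.3 (27 peaks, 3.17), whereas the bands of CEL, a pancreatic lipase, and NKX2-2 held 0 peaks. Blood and immune genes had 2 of 24, RUNX1 in 21q22.12 (3.38) and CD14 in 5q31.3 (2.59). Ribosomal protein genes had 0 of 28, at a median ratio of 0.853 and with RPS19 in 19q13.2 highest (1.74).

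**Figure D5:**
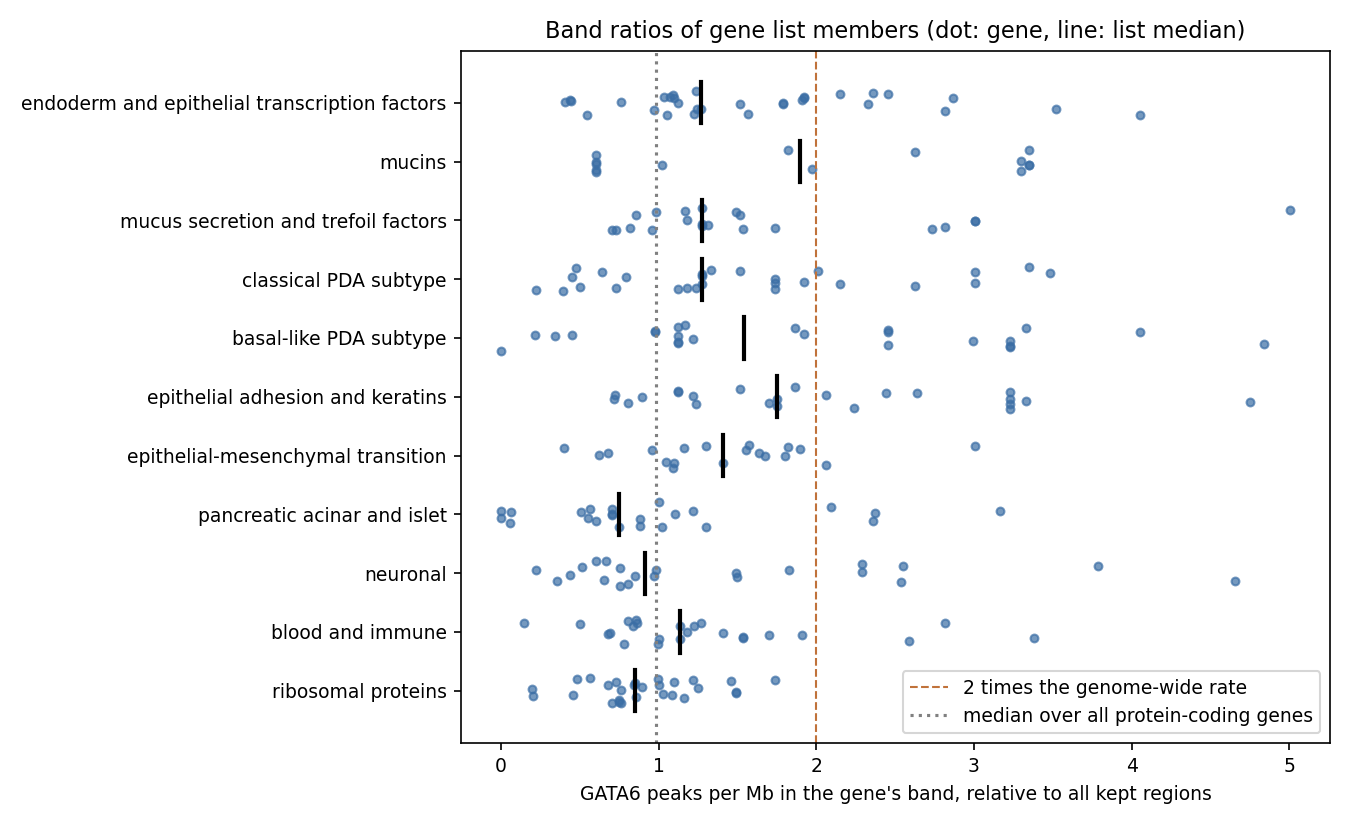
Each dot is a gene, placed by the GATA6 peaks per Mb of its band relative to all kept regions, and black lines are list medians. The lists of adhesion and keratin genes and of mucins have the highest medians, 1.75 and 1.90, and 0 of 28 ribosomal protein genes lie past the line at 2.

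Gene number changed these counts. With the expected number of peaks taken from the coding genes of a band, 12.2% of coding genes lay in dense bands. The counts were then 5 of 31 for transcription factors, 4 of 27 for the classical, 3 of 24 for the basal-like, 4 of 23 for the adhesion and 3 of 14 for the mucin list. They were 8 of 21 for mucus secretion, 7 of 22 for neuronal and 6 of 19 for mesenchymal genes. That measure favours bands of few genes, such as 2q22.3 of ZEB2, a repressor of E-cadherin, with 31 peaks beside 4 coding genes. The blood and immune list then had 4 of 24.

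The other lists of the series had different spacing and widths. With the same regions left out, 2603 SPDEF peaks of HPAF-II had a median width of 263 bp and a median gap of 242843 bp. The 5717 mouse Spdef peaks of FC1245 had 436 bp and 100190 bp. Clusters held 8.45% of SPDEF and 12.4% of mouse Spdef peaks, against 19.1% for GATA6, but a longer list gives shorter gaps and more clusters by its length alone. Unstained bands had 1.69 times the density of stained ones for SPDEF (95% interval 1.56 to 1.83) and 1.34 times for mouse Spdef, against 1.27 for GATA6. These are differences between single lists and have no replicate error.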

How the data were processed

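Cells were grown in RPMI with serum, and the kits were CUTANA ChIC/CUT&RUN and, for sequencing libraries, NEBNext Ultra II, per the labels' protocols. Tools listed in the submitters' processing notes, without their roles, are MACS2 2.2.7.1, Bowtie2 2.4.4, deepTools (version not listed) and SAMtools 1.14; mm10 and hg19 are the listed builds. The control, the peak threshold and the way 3 libraries became 1 list are not given in the sources used here. Lists as deposited by the authors give positions in bp only, so depth is unknown and intervals cover counting error only. All intervals take peaks as independent. The variance of the counts per 1 Mb window was 5.26 times their mean, so the intervals are likely too narrow. Of the GATA6 peaks, 0 ended past a chromosome of hg19 and 29 past one of GRCh38. Peak starts are printed counting from 1.

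Left out were the mitochondrial peak, 2 peaks on chromosome 1 below 1 Mb and 220 peaks within 1 Mb of a centromere band. In R 4.3.3, GenomeInfoDb 1.38.1 gave chromosome lengths and circlize 0.4.16 gave bands. Counting, intervals and figures were done in pandas 2.3.3, scipy 1.17.1, matplotlib 3.10.9 and numpy 2.4.6 under Python 3.11.15, and tested on simulated data. Peaks were placed in bands by midpoint, and expected numbers came from the kept length. Of the 862 bands, 51 were left out whole and 49 kept in part. Genes were tied to bands by name from RefSeq GRCh38.p14. Band edges are whole multiples of 0.1 Mb and differ between builds, so a gene near an edge can fall in the next band. Gene numbers are those of whole GRCh38 bands, whereas lengths are those of the kept hg19 bands, so genes per Mb are approximate. Band 19p13.13, for example, has 37 coding genes against 0.1 Mb. Of 257 list entries, 257 matched by symbol, and 1 had a band that was left out. No hg19 genome or annotation was used, so no sequence under a peak is printed. No test was made: 1 list allows none over samples. Members, lists and thresholds were chosen with earlier results of these data known. Named were the 15 widest peaks, the 15 clusters and 15 windows of 1 Mb with the most peaks (ties by summed width), the 10 bands of highest ratio, the 5 longest gaps, and the highest and lowest bands of each gene list. At each site, the band's coding genes were named where it holds at most 10, otherwise list members. Other list members and the remarks on chromosomes were chosen after their values were seen. Some list members that this rule names are not reported here.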

Additional observations from a re-analysis of the deposited data

Results flagged for a closer look

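The 220 GATA6 peaks within 1 Mb of a centromere band drew attention because they are a signal in regions that the description above does not use. They lay on 21 chromosomes at 1.44 peaks per Mb over 152.9 Mb, against 3.55 in the kept regions, and 93 of them touched a centromere band itself. The 152.9 Mb count the centromere bands in full, and how much of them is sequenced was not checked. The 220 peaks had a median width of 338 bp, and the widest spanned 2379 bp. Chromosome 2 held 35 of them, chromosome 4 held 29 and chromosome 20 held 23. No peak list of the IgG library was analysed here, so they could not be set beside a control.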

How the results depend on the processing

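The values describe 1 list of unknown depth, so small differences between counts carry no replicate error. No paired analysis was possible because 1 list stands for the 3 libraries, and for the same reason no replicate was left out. Joining peaks at most 500 bp apart was chosen after seeing the data; the other alternatives were listed earlier. Each summary value was recomputed under each alternative that applies to it: 89 of these recomputed values stayed within the interval of the reported one (or within 1.5 times, for counts) and 40 did not. For the ratios of the 10 named bands, 54 stayed and 9 did not. Single peaks, clusters and gaps were not scored in this way. Read against the share of all coding genes under the same rule, some lists changed sides. That share was 16.3% by length, 12.3% with the rate of the own chromosome and 12.2% per coding gene. The classical list (3 of 27) and the acinar and islet list (from 4 to 1 of 23) went below it with the rate of the own chromosome. The blood list went above it with that rate (3 of 24) and per coding gene (4 of 24). The mesenchymal list did so per coding gene (6 of 19). The classical count of 3, the blood count of 3 and the acinar and islet count of 4 were near the share. Such moves are not read as results about the lists. The clustered minus lone difference in median width was 3.5 bp with stitching at 5 kb. Leaving out peaks under 100 bp gave a median width of 356 bp, a median gap of 70229.5 bp and 17.5% of peaks in clusters. Joining gave 394 bp, 84866 bp and 11.5%, with 322 clusters and a clustered minus lone difference in median width of 177 bp. Without chromosomes 12, 14 and 20 the median gap was 74299.5 bp and the clustered share 17.5%. The wider 50% of peaks gave 145892 bp, 9.29% in 146 clusters, at most 22 peaks per window and a ratio of unstained to stained bands of 1.21. With them 4 mesenchymal genes lay in dense bands, but the share of all coding genes under that setting is not given here. Stitching at 5 and 20 kb gave 12.8% and 27.3% in clusters, and asking for at least 5 peaks gave 4.36% in 80 clusters. Dense bands numbered 194 at a fold of 1.5, 39 at a fold of 3 and 192 per coding gene. Per coding gene, the counts of list members in dense bands were 5 transcription factors, 3 mucins, 8 mucus secretion, 4 classical, 3 basal-like, 4 adhesion, 6 mesenchymal, 4 blood and 1 ribosomal gene. With the rate of the own chromosome they were 3 classical, 4 adhesion, 1 mesenchymal, 1 acinar or islet and 1 ribosomal gene. Without chromosomes 12, 14 and 20 they were 4 classical, 6 adhesion and 3 neuronal genes, from lists shortened by the members on those chromosomes. The share of all coding genes without those chromosomes is not given, so these counts cannot be read as shifts of the lists. The cause of these shifts was not tested. Some alternatives also hold fewer peaks, and the part of that in the shifts was not tested either.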

Other observations

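With peaks at most 500 bp apart joined, the order of the widest sites changed below the first. The widest stayed in 12q21.1, at 8942 bp from 3 peaks. It was followed by 4392 bp in 12p12.1 (chromosome 12, 26275499 to 26279890, 4 peaks) and 4038 bp in 2p16.2 (chromosome 2, 54797848 to 54801885). A site of 4008 bp made of 3 peaks then stood in 7p21.1 (chromosome 7, 20256800 to 20260807), the band of AGR2, AGR3 and TWIST1. Next came 3914 bp in 8q24.21 (chromosome 8, 130719505 to 130723418), the band of MYC and ASAP1. Neither of the last sites was among the 15 widest single peaks.

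Some gene-bearing bands held few GATA6 peaks. Among 265 bands with at least 10 expected peaks and at least 20 coding genes, the lowest were 19p12, the home of many zinc-finger genes, with 0 peaks against 12.1 expected (95% Poisson upper limit of the ratio 0.306), and 4q22.1, with 1 against 20.2. The next were 15q11.2 and 15q25.2, with 1 peak each, followed by 5p15.33 and 1p33, the band of TAL1, with 2 each. Of these, 19p12 is a variable band of which 3.4 Mb was kept, while its 35 coding genes are those of the whole band. How much of 19p12 is sequenced was not checked. Chromosome ends were sparse as well. The outermost 1 Mb held 69 peaks, 0.413 times the genome-wide rate (95% Poisson interval 0.322 to 0.523). The ratio was 0.495 for the outermost 2 Mb, 0.665 for 5 Mb and 0.774 for 10 Mb. These lengths include the short-arm ends of chromosomes 13, 14, 15, 21 and 22. Those short arms, parts of which are not sequenced, held 0 peaks each, or 1 on chromosome 21. How much they lower the ratios was not tested. These bands and distances were chosen after their values were seen.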
